A study of Bos taurus with 16 samples.

Results

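Heat shock proteins and the chaperones that work with them were compared between endometrial and blood CD14+ cells from 4 pregnant cows. The genes were chosen by name. They are the array probes whose gene name, or whose symbol in the probe description, begins with HSPA, HSPB, HSPD, HSPE, HSPH, HSP90, DNAJA, DNAJB or DNAJC, or is CCT with a number, and the brightest probe stood for each gene. The names found 62 genes, each with 1 probe, among 21475 probes. They are 11 genes of the HSP70 family, 3 of the HSP110 group, 6 small heat shock proteins, the 2 mitochondrial chaperonins HSPD1 and HSPE1, 5 DNAJA, 9 DNAJB and 16 DNAJC genes, 8 subunits of the CCT ring and the 2 binding proteins HSPBP1 and HSPBAP1.

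The cells came from cows at days 164, 239, 242 and 248 of pregnancy, called animals 1 to 4 here. The uteri and the blood were collected at an abattoir. The endometrium was minced and digested with collagenase, whereas blood mononuclear cells were prepared without digestion, so tissue and preparation cannot be told apart. Both preparations were then sorted by flow cytometry for CD14, a co-receptor of monocytes and macrophages, to a purity by the labels of 90% to 95% for endometrium and 98% to 99% for blood. Each of 8 arrays with 2 colours held the amplified RNA of both tissues of 1 animal, and every animal was hybridized on 2 arrays. The dyes were swapped between the 2 arrays of animals 1, 2 and 4, whereas both arrays of animal 3 had the endometrium in Cy5, so that in animal 3 tissue and dye cannot be told apart. Levels are log2 normalized intensities, a ratio is the log2 level in endometrium minus that in blood in the same animal, and levels of different probes cannot be set against each other.

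Chaperones bind unfolded proteins and help them fold, assemble or be degraded. HSP70 proteins hold exposed stretches of a protein in a cycle of ATP binding, in which J-domain proteins (the DNAJ genes) deliver the client and start hydrolysis and the HSP110 proteins release the nucleotide. Small heat shock proteins hold unfolding proteins without ATP, while HSP60 with HSP10 in mitochondria and the CCT ring in the cytosol enclose them. Some members are made at all times and others are induced through heat shock factor 1, and in monocytes and macrophages the inducible genes are known to respond to heat, infection and handling of the cells.

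Several HSP70 genes are so alike that the place of the probe decides which gene a value describes. The probes below, as printed in the array files from 5′ to 3′, are those of the inducible gene HSPA1B, of its constitutive relatives HSPA8 and HSPA1L, of the HSP110 protein HSPA4, of the co-chaperonin HSPE1 and of the J-domain protein DNAJA1. Capitals mark bases that are the same in HSPA8 and HSPA1L where their probes lie on matching stretches.
HSPA1B: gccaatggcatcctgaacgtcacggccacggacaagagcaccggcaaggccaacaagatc
HSPA8: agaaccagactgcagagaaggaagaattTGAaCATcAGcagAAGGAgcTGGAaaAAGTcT
HSPA1L: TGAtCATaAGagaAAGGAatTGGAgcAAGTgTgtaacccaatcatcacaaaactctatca
HSPA4: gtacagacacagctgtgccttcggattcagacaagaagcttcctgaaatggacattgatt
HSPE1: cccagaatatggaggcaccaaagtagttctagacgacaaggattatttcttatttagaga
DNAJA1: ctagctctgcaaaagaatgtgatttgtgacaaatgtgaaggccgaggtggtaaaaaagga
The last 32 bases of the HSPA8 probe and the first 32 of the HSPA1L probe were identical at 22 positions without a gap. The longest run that any of the 6 probes shared with another probe of the array was 15 bases, in HSPA4. The HSPA1B probe had a GC content of 60.0% and the other 5 probes lay between 36.7% and 45.0%. A reference gene table of the cattle assembly ARS-UCD2.0 gives the accession of the HSPA1B probe to HSPA1A, and it names the HSPA3 probe HSPA2, the HSPA9B probe HSPA9 and the DNAJA5 probe DNAJC21. For the HSPD1, DNAJC1 and DNAJC8 probes no gene symbol beyond a locus number was found, so these names rest on the array's text. The array's names are kept here, and HSPA1A and HSPA1B are near-identical copies that were not separated.

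The samples were first compared with the markers of the cells they are labelled as. CD14 itself had a level of 14.24 in the blood and 12.17 in the endometrial cells of animal 1, but only 6.31, 7.63 and 6.69 in the blood and 6.41, 8.14 and 6.82 in the endometrial cells of animals 2, 3 and 4. CD163, a macrophage receptor, was at 13.21 in the blood of animal 1 and between 7.53 and 8.35 in that of the others. In endometrial cells it was at 14.40, 8.22, 11.45 and 11.45 in animals 1 to 4. Each of the 4 animals held more of this transcript in endometrium than in blood, and the difference was larger in animals 3 and 4. T-cell genes mostly ran the other way between animals, lower in animal 1 than in the others. CD3G was at 6.42 and 7.21 in the blood and endometrial cells of animal 1, and between 9.49 and 12.03 in the 6 samples of the other animals, although CD3D was at 6.51 in the endometrial cells of animal 3. The 3 animals with little CD14 transcript therefore go against the label of their cells by CD14 itself, though not by CD163 to the same extent in the endometrium of animals 3 and 4. Results for the main genes below are given animal by animal, and those for other genes as a mean or a range. Markers of other cells also differed between the tissues. All 6 trophoblast genes looked at were higher in endometrium, 5 of them past an adjusted p of 0.05, and their summed level was 13.8 to 15.5 in endometrial samples against 9.53 to 10.6 in blood, and each was well above background in all 8 blood channels. The summed level of 7 epithelial markers was 11.7 to 15.4 against 9.58 to 11.3, and that of 6 stromal markers 8.84 to 16.1 against 8.67 to 10.4, with the highest stromal sum in animal 1. The stromal probe of LUM was well above background in only 4 of 8 endometrial and 2 of 8 blood channels. The low ends of the stromal sum therefore hold signal near background. The part of these other cells in the results was not tested. Fewer cells of a type and less RNA per cell cannot be told apart in such samples. The share of spots well above background ran from 65.2% to 82.9% over the channels, and no spot was saturated.

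The ratio was tested against 0 over the 4 animals with limma's moderated test on all 16654 probes that the scanner had marked as well above background on 4 or more of the 8 channels in either tissue. Of the 62 chaperone genes 58 passed this filter. HSPA12A, HSPB3, DNAJB8 and DNAJC5B were dim in both tissues and were not tested. At an adjusted p up to 0.05 together with more than a 2-fold change, 0 of the 58 genes were called in either direction, where 0.0661% of all tested probes were called as higher and 0.00% as lower. With the same fold change and an unadjusted p up to 0.05, called the nominal threshold from here on, 8 genes (13.8%) were higher in endometrium against 5.27% of all probes, and 1 gene (1.72%) was lower against 5.11%. The 8 genes were HSPA6, HSPA1B, HSPA3, HSPA1A, HSPH1, HSPB1, DNAJB1 and DNAJB4, and the lower gene was DNAJB6. Without regard to fold change 12 of 58 genes had an unadjusted p up to 0.05, that is 20.7% against 15.2% of all probes. The count of 8 depended on single animals, since it was 3 without animal 3 and 13 without animal 4, and the count of 1 lower gene became 0 without animal 1 or animal 2 and 3 without animal 4. Without animal 1, the animal with CD14 transcript, 6 genes were higher. With the scanner files taken as they were attached to the samples, 0 genes were called in either direction. That reading exchanges endometrium and blood in animals 1, 2 and 4, whose dyes were swapped, and leaves animal 3 unchanged. It goes against the deposited value table, whose columns matched the rank order of the animal's other file at 100% of probes.

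**Figure D1:**
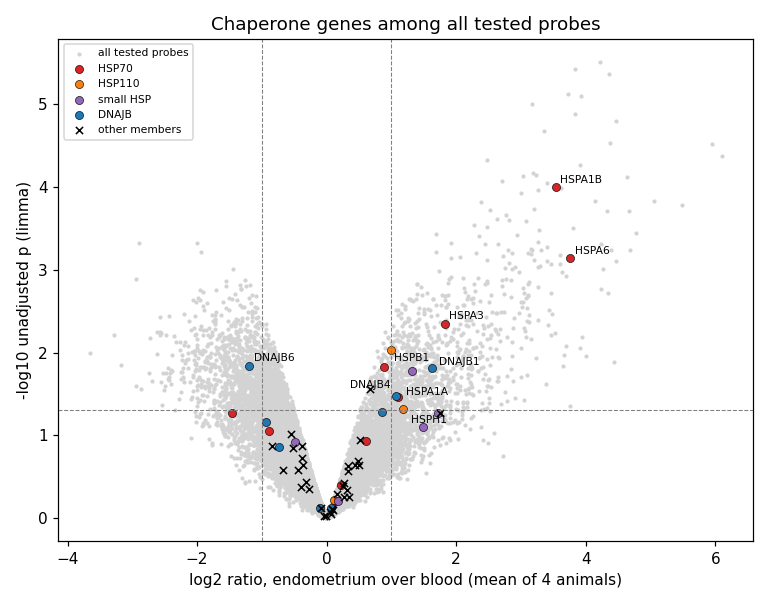
Mean log2 ratio of endometrium over blood in 4 animals (x axis) against the negative log10 of limma's unadjusted p (y axis) for all 16654 tested probes in grey and the 58 tested chaperone genes in colour or as crosses. Dashed lines mark a fold change of 2 and a p of 0.05, and HSPA1B and HSPA6 lie at ratios of 3.54 and 3.76, away from the other members.

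HSPA1B and HSPA6, both stress-inducible HSP70 proteins of the cytosol, had the largest ratios of all members. HSPA1B stood at 12.84, 13.43, 13.49 and 11.18 in the endometrial cells of animals 1 to 4 and at 9.67, 9.60, 9.02 and 8.51 in their blood cells. Every endometrial sample lay above every blood sample, and the lowest endometrial level was that of animal 4. The ratios of 3.18, 3.83, 4.47 and 2.68 gave a mean of 3.54 ± 0.35 (SE, n = 4 animals), an 11.6-fold difference with a 95% interval of 6.32 to 21.3, at an adjusted p of 0.0775 by limma. This gene passed the adjusted threshold in 6 of the alternative settings, with ratios of 3.53 to 3.76 there. They include the fit with a dye term, which takes its degrees of freedom from arrays and not from animals. Without animal 1 its ratio was 3.66.

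HSPA6, which unstressed cells make little of, stood at 11.58, 11.51, 11.18 and 7.94 in endometrium and at 7.58, 6.44, 7.02 and 6.12 in blood. The tissues did not overlap, but the endometrial cells of animal 4 were only just above the blood cells of animal 1. Its ratios of 4.00, 5.08, 4.16 and 1.82 averaged 3.76 ± 0.55 (SE, n = 4 animals), with an adjusted p of 0.176 by limma. In blood the probe was dim, though marked as well above background in 7 of 8 channels, and the offset added in the background correction draws ratios of dim probes toward 0. In the authors' log2 values the mean ratio of HSPA6 was 5.80 with an adjusted p of 0.0111, and in the scanner's processed signal it was 5.81 with one of 0.0197. In the authors' values animal 4 had a ratio of 4.52 and animal 1 one of 4.56.

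The probe printed as HSPA1A, the other copy of the inducible pair, gave smaller values. It read 8.08, 8.72, 7.50 and 6.27 in endometrium and 6.66, 6.67, 6.40 and 6.41 in blood. The first 3 animals were higher in endometrium and animal 4 was not, so that the tissues overlapped. Its mean ratio was 1.11 ± 0.39 (SE, n = 4 animals), unadjusted p of 0.0341 and adjusted p of 0.295 by limma, and 2.12 in the authors' values. A brighter probe on the array also carries HSPA1A in its description, in a row where the text stands in the column of accessions, and so was not found by the naming rule. It read 15.99, 15.97, 15.72 and 14.35 in endometrium and 12.03, 11.45, 11.17 and 12.85 in blood. The tissues did not overlap on that probe, and its mean ratio was 3.63 ± 0.57 (SE, n = 4 animals) at an adjusted p of 0.206 by limma. It was picked out after its values were seen. The 2 HSPA1A probes differed in size of ratio, and both had their smallest ratio in animal 4.

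HSPA3, named HSPA2 in the reference table, is an HSP70 protein best known from the testis. It was at 11.69, 13.37, 13.02 and 11.46 in endometrium and at 9.82, 10.57, 11 and 10.85 in blood. All endometrial samples exceeded all blood samples, with a mean ratio of 1.82 ± 0.39 (SE, n = 4 animals) and an adjusted p of 0.262 by limma. HSPA8, the constitutive HSP70 of the cytosol, lay at 14.24, 14.51, 14.20 and 14.18 in endometrium and at 12.92, 13.35, 13.64 and 13.69 in blood. Its tissues were also apart, at a smaller mean ratio of 0.88 ± 0.25 and an unadjusted p of 0.0148. The testis gene HSPA1L, whose probe overlaps that of HSPA8 when aligned, had a ratio of 0.13, with animals on both sides of 0.

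HSPA5, the HSP70 of the endoplasmic reticulum, was at 14.24, 14.67, 14.74 and 14.29 in endometrium and 14.33, 13.45, 13.53 and 14.20 in blood. Animals 2 and 3 had ratios of 1.23 and 1.21, and animals 1 and 4 ratios of -0.09 and 0.10. The mean was 0.61 ± 0.33 at an unadjusted p of 0.117 by limma over the 4 animals. HSPA9B, the mitochondrial HSP70, had the lowest mean ratio of all tested members. It was at 8.88, 10.39, 8.62 and 10.88 in endometrium and at 10.51, 10.96, 12.13 and 11 in blood. The ratio was below 0 in 4 of 4 animals but ran from -3.51 in animal 3 to -0.12 in animal 4, so that the mean of -1.46 ± 0.59 had an unadjusted p of 0.0541. Of the remaining HSP70 genes, HSPA14 had a ratio of 0.22 and HSPA12B one of -0.88, neither past an unadjusted p of 0.05. Over the 10 tested HSP70 genes the median ratio was 0.75, against 0.16 over all tested members and -0.02 over all tested probes, and 4 of the 10 passed the nominal threshold, all of them higher, where 5.27% of all probes were higher and 5.11% lower.

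**Figure D2:**
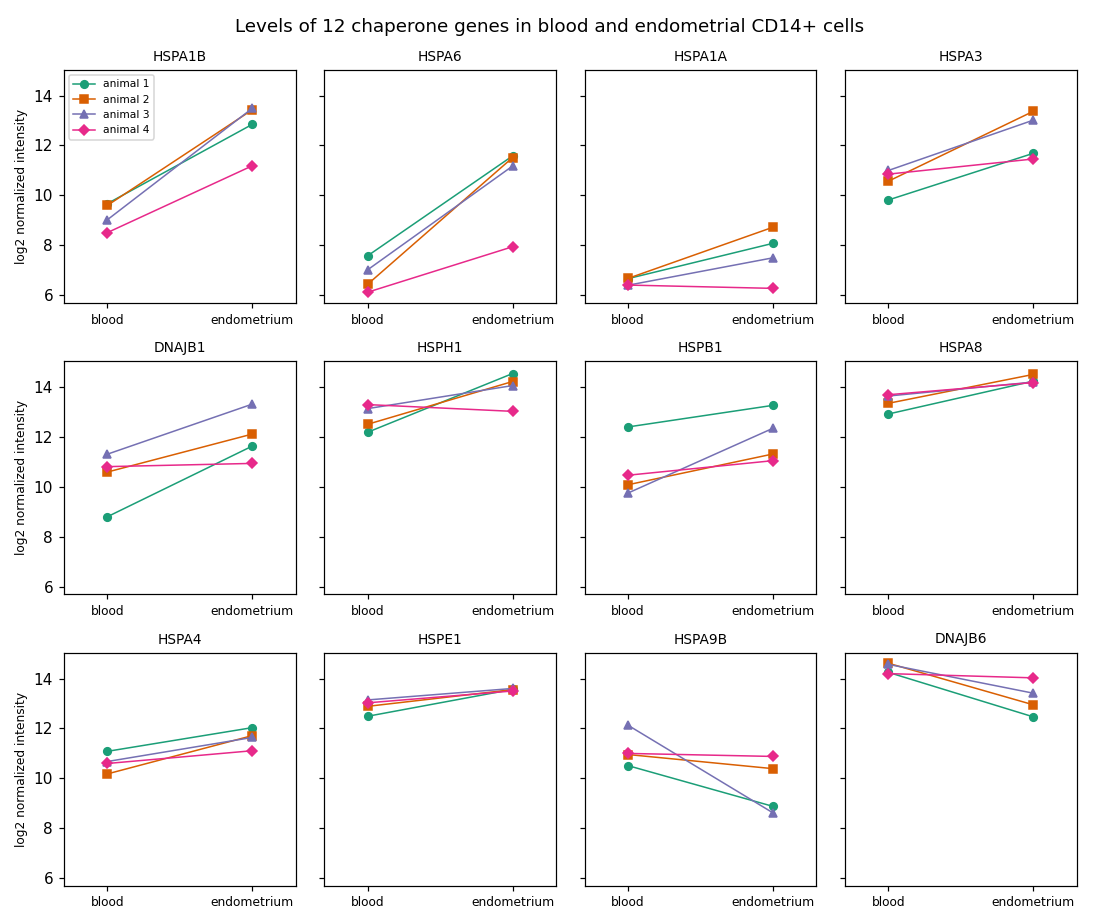
Log2 normalized intensity (y axis) of 12 chaperone genes in the blood and endometrial CD14+ cells of 4 animals, with a line joining the tissues of 1 animal. HSPA1B and HSPA6 are higher in endometrium in each animal, DNAJB6 is lower in each and least so in animal 4, and levels are comparable within a panel only.

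The HSP110 proteins, which exchange the nucleotide of HSP70, had a median ratio of 0.99 over 3 genes. HSPH1 was at 14.54, 14.22, 14.06 and 13.03 in endometrium and at 12.19, 12.51, 13.14 and 13.30 in blood. Its ratio ranged from 2.35 in animal 1 to -0.27 in animal 4, and the tissues overlapped because of animal 4. The mean of 1.18 ± 0.46 had an unadjusted p of 0.0481 by limma over the 4 animals. HSPA4 was at 12.03, 11.71, 11.64 and 11.11 in endometrium and at 11.08, 10.18, 10.68 and 10.60 in blood. All endometrial samples exceeded all blood samples by a small margin, with a mean ratio of 0.99 ± 0.25 and an unadjusted p of 0.00924. HSPA4L, a relative expressed in testis, was dim, with 5 of 8 endometrial and 2 of 8 blood channels well above background, and had a ratio of 0.12.

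Among J-domain proteins the values depended on the member. DNAJB1, the stress-inducible partner of HSPA1A, was at 11.63, 12.12, 13.32 and 10.94 in endometrium and at 8.80, 10.59, 11.31 and 10.81 in blood. The ratio was above 0 in 4 of 4 animals, from 2.83 in animal 1 to 0.13 in animal 4. Its mean of 1.62 ± 0.46 (SE, n = 4 animals) had an unadjusted p of 0.0153 and an adjusted p of 0.262 by limma. DNAJB4, a related partner of HSP70, had ratios of 2.06, 1.13, 1.13 and -0.05, a mean of 1.07 ± 0.38 and an unadjusted p of 0.033. It thus shared with HSPH1, HSPA1A and DNAJB1 a ratio near 0 in animal 4. DNAJB2, a neuronal J-domain protein, had ratios of 1.20, 1.23, 1.28 and -0.29, with an unadjusted p of 0.0521.

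DNAJB6, which keeps aggregation-prone proteins in solution, went the other way. It was at 12.47, 12.95, 13.41 and 14.03 in endometrium and at 14.25, 14.61, 14.57 and 14.20 in blood. All endometrial samples lay below all blood samples, with ratios of -1.78, -1.66, -1.16 and -0.17. The mean of -1.19 ± 0.34 (SE, n = 4 animals) is a level 2.29-fold lower in endometrium, at an unadjusted p of 0.0144 and an adjusted p of 0.262 by limma. DNAJB12, an endoplasmic reticulum membrane protein, was at 9.41, 9.54, 7.65 and 9.70 in endometrium and between 9.89 and 10.22 in blood. The tissues were apart, but animal 3 gave a ratio of -2.34 and the others ratios of -0.81, -0.39 and -0.19. Over the 8 tested DNAJB genes the median ratio was -0.02, the same as over all probes.

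DNAJA genes are general partners of cytosolic and mitochondrial HSP70. The 5 genes printed as DNAJA had ratios between -0.52 and 0.35 and none had an unadjusted p up to 0.05. The lowest ratio was that of DNAJA5, named DNAJC21 in the reference table, and the next was that of DNAJA2, at -0.27. DNAJA1, whose probe is printed above, had a ratio of 0.27 with a 95% interval of -0.44 to 0.99. The 15 tested DNAJC genes, which serve many separate tasks, had a median of 0.07 and also none at an unadjusted p up to 0.05. The farthest from 0 was DNAJC6, known as auxilin for its part in the uncoating of clathrin vesicles, with ratios of 2.40, 3.35, 2.16 and -0.89 and an unadjusted p of 0.0531. DNAJC5 was below 0 in 4 of 4 animals at a mean of -0.38. DNAJC4 had a ratio of 0.16, near background, and of 1.00 in the authors' values.

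**Figure D3:**
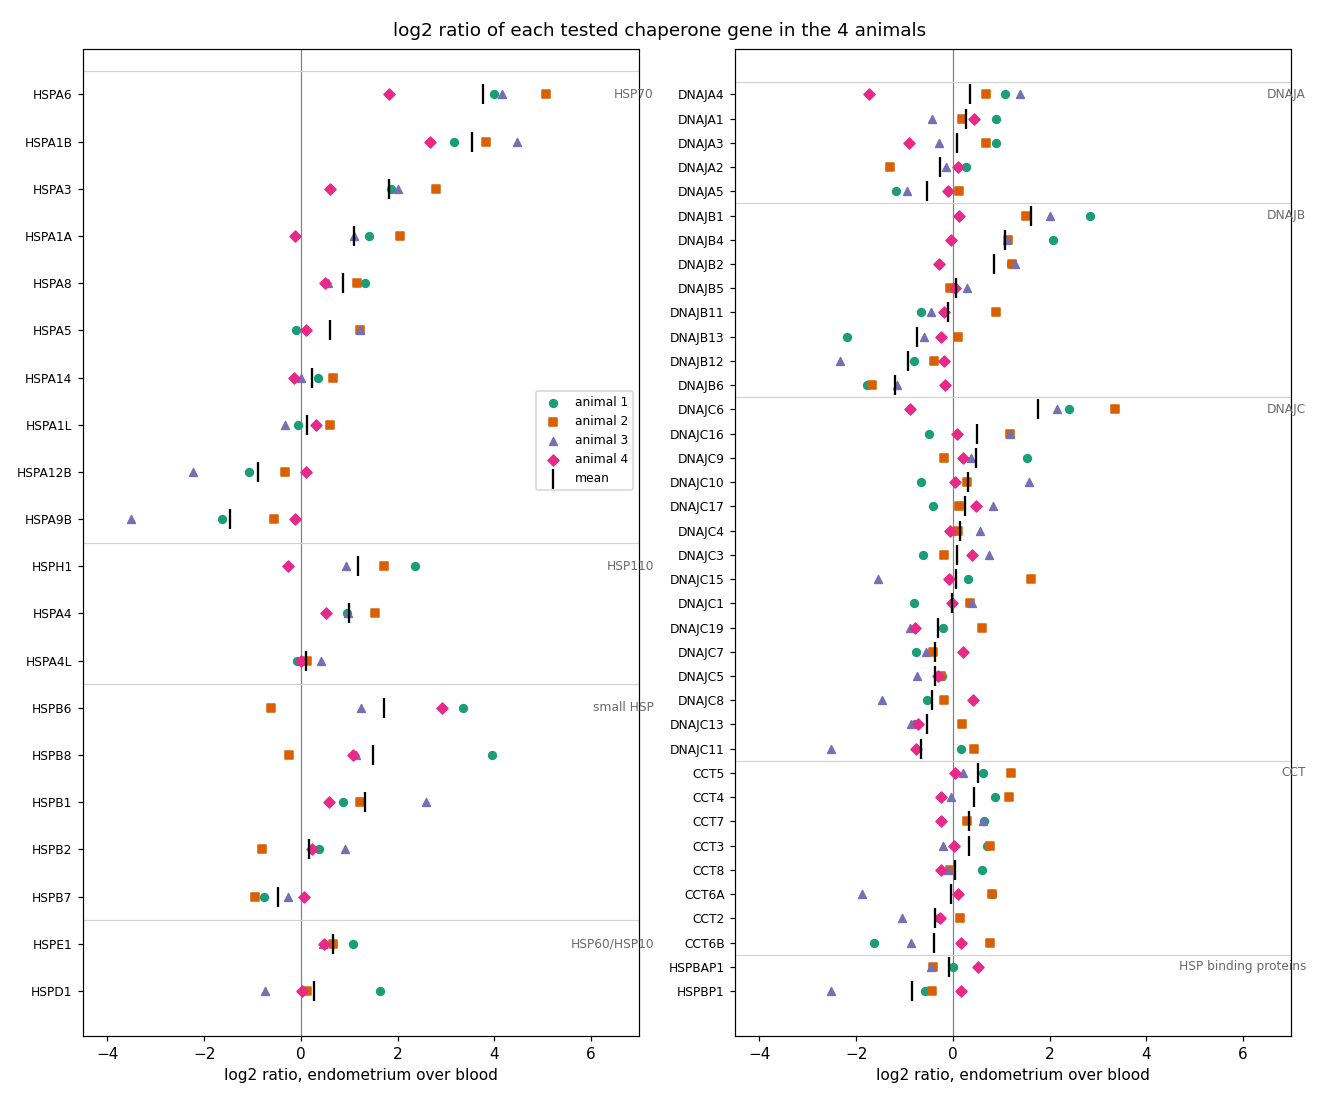
Log2 ratio of endometrium over blood (x axis) for each of the 58 tested chaperone genes, grouped by family, with 1 point for each of the 4 animals and a bar at their mean. Animal 4 lies nearest to 0 in 34 genes, and the spread over animals exceeds the mean in most of the DNAJC and CCT genes.

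Small heat shock proteins varied most between animals. HSPB1, known as HSP27, was at 13.27, 11.32, 12.35 and 11.05 in endometrium and at 12.40, 10.09, 9.75 and 10.47 in blood. It was higher in endometrium in each animal, by 0.87, 1.23, 2.59 and 0.58, although the levels of the tissues overlapped between animals. The mean of 1.32 ± 0.39 had an unadjusted p of 0.0165 by limma over the 4 animals. HSPB6, a muscle heat shock protein, had ratios of 3.35, -0.62, 1.23 and 2.93, and HSPB8, a partner of the co-chaperone BAG3, ratios of 3.95, -0.26, 1.15 and 1.08. Neither had an unadjusted p up to 0.05. The median ratio of the 6 stromal markers over the animals, in the order of their numbers, was 5.44, 0.23, 1.27 and 1.23, so that both genes and the stromal markers had their largest ratio in animal 1 and their smallest in animal 2. The part of stromal RNA in these ratios was not tested. HSPB2 and HSPB7 had ratios of 0.17 and -0.48.

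In the mitochondrial chamber, the lid HSPE1 was at 13.57, 13.56, 13.60 and 13.50 in endometrium and at 12.49, 12.89, 13.14 and 13.03 in blood. The endometrial samples lay close together and all above blood, with a mean ratio of 0.67 ± 0.22 and an unadjusted p of 0.0273 by limma over the 4 animals. The ring protein HSPD1 had ratios of 1.64, 0.13, -0.74 and 0.02 and a mean of 0.26, which was -0.20 without animal 1. The 8 CCT genes, whose ring folds actin and tubulin, had ratios between -0.39 for CCT6B and 0.52 for CCT5 with a median of 0.19, and 0 of 8 had an unadjusted p up to 0.05. CCT5 was above 0 in 4 of 4 animals, from 0.05 to 1.21. The binding proteins HSPBP1 and HSPBAP1 had ratios of -0.84 and -0.09.

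Taking direction alone, 9 of 58 genes had a higher endometrial level in every one of the 4 animals against 10.2% of all probes, and 4 genes were lower in 4 of 4 against 14.7%. All endometrial samples lay above all blood samples in 6 genes, HSPA1B, HSPA3, HSPA4, HSPA6, HSPA8 and HSPE1, where 2.41% of all probes had that order. They lay below in 2 genes, DNAJB6 and DNAJB12, against 3.03% of all probes. In percent of the tested members the 4 counts were 15.5%, 6.90%, 10.3% and 3.45%. The last of these is near the share among all probes.

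The animals differed in how far the tissues stood apart. Animal 4 had the ratio nearest to 0 in 34 of 58 chaperone genes, or 58.6%, and in 39.7% of all tested probes. Over all tested probes the ratios of this animal had an SD of 0.71 and those of animal 3 one of 1.49. Among trophoblast markers, in contrast, the median ratio was 3.81 in animal 4 and 3.99, 3.98 and 4.39 in animals 1 to 3. HSPA6 and HSPA3 had ratios in animal 4 of 1.82 and 0.61, below each of the other animals, and for HSPA1B the value of 2.68 was the smallest as well. For HSPA6, dim in blood, the authors' values gave nearly the same ratio in animal 4 as in animal 1, at 4.52 and 4.56. The ratios of the 2 arrays of an animal differed by a median of 0.12 over the 58 genes in animals 1, 2 and 4 and of 0.06 in animal 3. The arrays of animal 3 had the same dye order, so any dye effect stays in its ratios, among them those of -3.51 for HSPA9B and -2.34 for DNAJB12, and its part was not tested in that animal.

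HSP90 proteins, which finish the folding of kinases and steroid receptors, are on the array under older names or with their symbol outside the columns searched. The cytosolic HSP90AA1 had a ratio of 0.19 with a 95% interval of -0.39 to 0.77, and HSP90AB1 one of -0.15 with an interval of -0.94 to 0.64. HSP90B1 of the endoplasmic reticulum had ratios of 1.41, 0.13, 1.61 and 0.14 and all of its endometrial samples above all blood samples, with an unadjusted p of 0.0656 by limma over the 4 animals. With these and the other genes that belong to the families by current symbol or by text in another column, 79 genes were found and 71 tested. Of those 71, 8 were higher and 2 lower at the nominal threshold, against 5.27% and 5.11% of all probes, and 0 passed the adjusted threshold. The count stayed at 8 because HSPA1A and HSPA1B share 1 current symbol and became 1 gene, read from the brighter HSPA1A probe, while DNAJC12 was added at a ratio of 1.87, and the other lower gene was HSPA13, an HSP70 relative of the endoplasmic reticulum, at a ratio of -1.34. DNAJB9, a J-domain protein induced by endoplasmic reticulum stress, was lower in 4 of 4 animals on both of its probes, at -0.92 and -0.39.

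**Figure D4:**
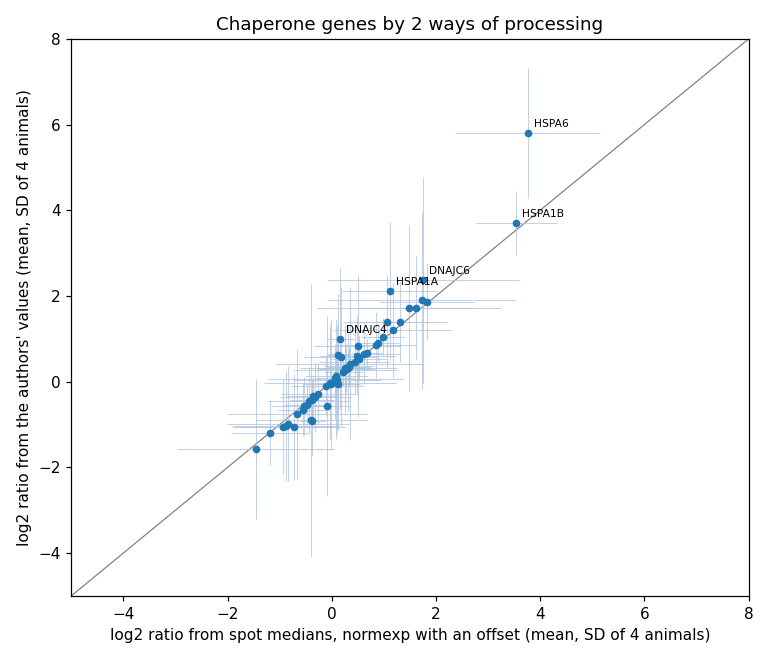
Mean log2 ratio of the 58 tested chaperone genes from the spot medians with normexp and an offset of 50 (x axis) and from the authors' log2 values (y axis), with bars for the SD over 4 animals and a line of equality. HSPA6 moves from 3.76 to 5.80 and HSPA1A from 1.11 to 2.12, while HSPA1B stays at 3.54 and 3.70.

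A list of 58 heat shock factors, co-chaperones and other folding and stress genes was read beside the members, of which 57 had a probe and 56 were tested. At the nominal threshold, 5 of the 56 were higher and 2 lower, where 5.27% and 5.11% of all probes were, and 0 passed the adjusted threshold in either direction. The 5 were CRYAB, SERPINH1, HMOX1, FKBP4 and SIL1. CRYAB, a small heat shock protein of the lens and of muscle, had ratios of 3.92, 0.62, 5.59 and 3.94. SERPINH1, the collagen chaperone HSP47, had ratios of 4.97, 2.97, 3.28 and 1.97. It was, like the stromal markers, farthest from 0 in animal 1. Its smallest ratio was in animal 4, whereas the stromal median was smallest in animal 2, at 0.23. HMOX1, the haem oxygenase induced by oxidative stress, had ratios of 1.00, 2.66, 4.69 and 3.24.

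The HSP90 immunophilin FKBP4 had a mean ratio of 1.80 and SIL1, which releases nucleotide from HSPA5, one of 1.09. The lower genes were the co-chaperones BAG6 and BAG4, at -1.37 and -1.34 with ratios in animal 3 of -3.12 and -3.22. The count of 2 lower genes was 1 without animal 1, 0 without animal 2 or animal 3 and 7 without animal 4, and that of 5 higher genes was 8 without animal 4. HSF1, the factor that induces heat shock genes, was read from a probe with only a locus number as gene symbol. That probe reached the mark for well above background in 0 of the channels of both tissues. A missing transcript and a probe that does not report it cannot be told apart. The median ratio of the list was 0.14. Over 15 folding genes of the endoplasmic reticulum the median was 0.19, and over 7 genes of cytosolic folding it was -0.27.

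Immediate early genes, which respond within minutes to handling of cells, were read in the same way. Of 21 tested, 7 were higher in endometrium at the nominal threshold, 0 were lower and 0 passed the adjusted threshold, where 5.27% of all probes were higher and 5.11% lower. The 7 genes were FOS, FOSB, JUN, EGR1, ATF3, KLF4 and KLF6. FOSB had ratios of 2.50, 4.06, 3.95 and 1.93, and FOS ratios of 2.91, 2.72, 2.19 and 0.23. The smallest ratio was that of animal 4 in 5 of the 7 genes, but that of animal 2 in JUN, at 1.07 against 1.32 in animal 4, and that of animal 1 in ATF3, at 0.63 against 0.78. Yet MYC, NR4A1 and ZFP36 had mean ratios of -0.67, -0.32 and -0.31, and the median over the 21 genes was 0.37. Their summed level was 17.4 to 18.4 in endometrial samples and 17.0 to 17.6 in blood samples. The part of cell handling in the chaperone ratios was not tested.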

How the data were processed

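RNA of CD14+ cells of endometrium and blood of 4 cows was hybridized on 8 Agilent arrays with 2 colours (16 samples). The authors deposited scanner files with the intensity of each spot and its local background, a processed intensity corrected and normalized for dye by Feature Extraction (version 9.5 per the labels), and log2 values in 1 table, normalized by lowess and quantiles. To match files, the values of each column were set in the rank order of a scanner channel's processed intensity. They were then compared with the column, with the spots of a probe taken without order. They agreed within 0.001 at 100% of probes for a channel of the file given with the animal's other technical replicate. Spot by spot the agreement was 40.9% to 41.0%. Files were assigned by the match over probes. Spot medians were corrected with limma 3.58.1 (R 4.3.3, statmod 1.5.0) by normexp with an offset of 50, then normalized within arrays (loess) and across channels (quantiles). Control spots and 3 to 20 outlier spots an array were left out, and the spots of a probe were averaged. The ratio of each animal, the mean of its 2 arrays, was tested against 0 with lmFit and eBayes, and p values were adjusted by Benjamini and Hochberg over 16654 probes. The fit was tested on simulated data. Pairing comes from the animal number in the labels, and deviations of the paired tissues correlated with r of 0.618, 0.364, 0.209 and 0.465. The 2 arrays of an animal are technical repeats, so the 4 animals limit the precision.

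The members, lists and alternatives were chosen with earlier results of these data known. Genes named in full are those past the nominal threshold, the 3 highest and 3 lowest ratios, and a fixed set of main chaperones. Of the 62 member probes, 55 had the array's symbol in the reference table. Lists covered co-chaperones and stress regulators, immediate early genes, and markers of monocytes, trophoblast, epithelium, stroma, natural killer and T cells and B cells. The summed level of the 6 monocyte markers was 10.3 to 16.0 in endometrium and 9.32 to 15.3 in blood, and the medians of ratios were 1.71 for them, 1.01 for 7 natural killer and T-cell markers and -1.65 for 4 B-cell markers. Alternatives changed the background correction, normalization, intensities, filter, pairing, slide, dye, animals, test and choice of probe. The member rule by current gene names was added after the values were seen.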

Additional observations from a re-analysis of the deposited data

Results flagged for a closer look

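Among 63 sets of 4 animals looked at (the endometrial level, blood level and ratio of 21 named genes), 3 held a value far from the other animals, and chance alone sets apart about 1 in 20 such sets. The endometrial level of HSPA6 in animal 4 was 7.94, below the range of 11.18 to 11.58 in the other animals. The endometrial level of DNAJB12 in animal 3 was 7.65, below the range of 9.41 to 9.70 in the others. The blood level of HSPA4L in animal 1 was 6.37, above the range of 6.06 to 6.07 in the others, on a probe that was well above background in only 2 of 8 blood channels.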

How the results depend on the processing

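At the adjusted threshold 0 chaperone genes were higher in endometrium by the main processing, which called 11 of 16654 probes in all. The count was 1 without background correction (50 of 16654 probes called) or with all 8 channels required above background (44 of 13538). It was 2 with an offset of 10 (86 of 16654), the scanner's processed signal (171) or the authors' log2 values (224). With a dye term and the animal as a random block it was 4 (HSPA1B, HSPA6, HSPA3 and DNAJB1), and that fit called 792 of 16654 probes in all. It takes its degrees of freedom from 8 arrays and not from 4 animals, although the arrays of an animal correlated at 0.986. Its counts are therefore not on the same footing as the others. At an unadjusted p of at most 0.05 with a fold change over 2, the 8 higher genes became 3 by the methods' analysis of variance and 0 with files as attached, and 3 to 13 when 1 animal was left out. The 1 lower gene became 2 without background correction, with an offset of 10, with all 8 channels, on slide 1, with the dye term or with genes under older names added (chosen after seeing the data), 0 with files as attached, and 0 to 3 when 1 animal was left out. Without the replicate block that pairs the tissues of an animal, 0 genes passed the adjusted threshold and 2 were lower at the unadjusted one. In the list of co-chaperones and stress regulators, the adjusted count of 0 higher genes was 1 with an offset of 10, the processed signal or the authors' values and 4 with the dye term. Its 5 higher genes at the unadjusted threshold ranged from 4 to 8 with 1 animal left out. Its 2 lower genes ranged from 0 to 7 with 1 animal left out, were 0 by loess alone, the processed signal, no filter or the analysis of variance, and were 1 with the authors' values, without the replicate block, on slide 2 or with the mean over probes. The ratio of HSPD1 ranged from -0.20 to 0.59 and that of HSP90AB1 from -0.31 to 0.17 with 1 animal left out, changing sign without animal 1 and animal 3 respectively. The median ratio of all tested probes was -0.02, but -0.13 in the processed signal and -0.14 in the authors' values. All family medians kept within 1 SD of the animals' medians under the alternatives run. The causes were not tested. The offset and the dimness of blood signals limit ratios such as that of HSPA6, and 4 animals limit every test.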
